A study of Homo sapiens with 9 samples.

Results

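The 10 genes described here encode the DNA glycosylases of base excision repair that remove uracil, mispaired thymine or oxidized bases: UNG, SMUG1, TDG, MBD4, OGG1, MUTYH, NTHL1, NEIL1, NEIL2 and NEIL3. They were chosen by symbol, matched to Ensembl gene IDs, and make up 10 of the 34789 genes in the table. The series measured polyadenylated RNA in H1299, a cell line of wild-type genotype per the labels that derives from a human non-small cell lung cancer. Cells were transfected with 50 nM of a control siRNA (siControl), or of either of 2 siRNAs against the forkhead transcription factor FOXN3 (siFOXN3-1 and siFOXN3-2). Each group held 3 samples, all groups received Lipofectamine RNAiMAX, and the time of harvest is not stated. The labels do not say whether replicates were grown apart, and p-values therefore describe the spread among the deposited samples, possibly a technical one.

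Base excision repair begins when a glycosylase flips a damaged or wrong base out of the helix and cuts the bond that holds it to the sugar. The empty sugar is then cleaved by the endonuclease APE1 or by the glycosylase itself, a polymerase fills the gap and a ligase seals it. UNG and SMUG1 excise uracil, TDG and MBD4 excise thymine or uracil opposite guanine, OGG1 and MUTYH limit mutation by 8-oxoguanine, and NTHL1 and the NEIL enzymes excise oxidized pyrimidines. TDG also removes the oxidized forms of methylcytosine that TET enzymes make, a route of DNA demethylation.

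FOXN3 was checked first, as the targeted gene. It stood at 4.85, 5.25 and 5.00 FPKM (fragments scaled to exon length and library size) in the siControl samples, at 1.28, 1.24 and 1.16 in the siFOXN3-1 samples and at 0.858, 0.958 and 1.06 in the siFOXN3-2 samples. All 6 siRNA samples were therefore below all siControl samples, with 24.3% and 19.0% of the siControl mean left. For 2 samples the labels conflict: siFOXN3-2 replicates 2 and 3 are named so by their titles, but the treatment field gives siFOXN4 for one and siFOXN5 for the other. FOXN3 was low in both, and values without these 2 samples are given where they change a call. Depth, recovered from the steps between low FPKM values, was 17.0 to 19.6 M fragments per sample. Of the listed markers of the line, KRT8, KRT18, VIM and CDH2 exceeded 1 FPKM, whereas KRT19, EPCAM, CDH1 and NKX2-1 did not. Mitochondrial genes held 13.7 ± 0.525% of all FPKM in siControl, 8.24 ± 0.891% in siFOXN3-1 and 7.99 ± 0.937% in siFOXN3-2. The part of this shift in the results was not tested, although scaling without these genes is among the alternatives.

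The start regions of 8 of the 10 genes were available from RefSeq (GRCh38.p14, windows of 300 bases from 250 before to 50 after the start). Windows of 3 genes are shown, chosen by their changes: UNG fell with both siRNAs, TDG rose with siFOXN3-2, and NEIL3 fell with both. NEIL3 was on average lowest with siFOXN3-2, but its siRNA groups overlapped and did not differ by the test (-0.16, limma adjusted p = 0.239). UNG has 2 start sites, and both windows are given. The upstream one is known to serve the nuclear form of the enzyme and the downstream one the mitochondrial form. Capitals mark matches to 6 motifs searched on both strands.
UNG upstream start, chr12:109097347-109097646, plus strand: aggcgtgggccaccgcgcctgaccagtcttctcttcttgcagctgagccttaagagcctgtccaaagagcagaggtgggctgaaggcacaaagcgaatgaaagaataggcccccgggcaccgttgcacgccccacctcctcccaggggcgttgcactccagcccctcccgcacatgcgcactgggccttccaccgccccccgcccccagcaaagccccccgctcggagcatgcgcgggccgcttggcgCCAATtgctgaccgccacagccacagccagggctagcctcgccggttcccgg
UNG downstream start, chr12:109097922-109098221, plus strand: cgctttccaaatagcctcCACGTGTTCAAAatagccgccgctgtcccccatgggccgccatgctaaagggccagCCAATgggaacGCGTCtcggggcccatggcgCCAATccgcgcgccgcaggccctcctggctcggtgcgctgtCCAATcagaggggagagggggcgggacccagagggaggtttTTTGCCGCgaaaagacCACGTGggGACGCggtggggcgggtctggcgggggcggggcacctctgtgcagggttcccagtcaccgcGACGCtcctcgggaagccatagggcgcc
TDG, chr12:103965622-103965921, plus strand: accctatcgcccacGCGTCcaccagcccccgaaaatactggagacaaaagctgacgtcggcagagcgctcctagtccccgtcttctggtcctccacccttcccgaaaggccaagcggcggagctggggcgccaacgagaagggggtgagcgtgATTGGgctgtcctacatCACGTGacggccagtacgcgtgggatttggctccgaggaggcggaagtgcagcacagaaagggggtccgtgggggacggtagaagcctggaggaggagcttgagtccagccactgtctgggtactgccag
NEIL3, chr4:177309624-177309923, plus strand: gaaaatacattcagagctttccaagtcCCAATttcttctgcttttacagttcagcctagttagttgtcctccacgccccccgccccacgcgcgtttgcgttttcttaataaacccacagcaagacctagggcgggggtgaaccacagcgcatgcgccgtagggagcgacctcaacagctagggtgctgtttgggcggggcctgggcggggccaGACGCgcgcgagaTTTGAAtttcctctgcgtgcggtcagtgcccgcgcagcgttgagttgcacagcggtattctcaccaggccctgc

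The motifs were the forkhead element GTAAACA, the second forkhead element GACGC (known as FHL), an E2F site (TTTCCCGC, TTTGGCGC, TTTCGCGC or TTTGCCGC), the cell cycle element TTTGAA (CHR), the E-box CACGTG and the CCAAT box. No motif of the set contains another. GTAAACA was in 3.42% of the 35116 RefSeq windows and in none of the 13 windows of the 8 glycosylase genes. GACGC was in 35.3% of all windows and in 5 of the 13, with 1 window each of MBD4, NEIL3, NTHL1, TDG and UNG. The E2F letters, present in 3.31% of all windows, were found once, in the downstream UNG window, 63 bases before the start. TTTGAA was in 15.2% of all windows and in those of MUTYH, NEIL3 and UNG, and CACGTG was in 7.26% of all windows and in those of NTHL1, TDG and UNG. CCAAT, present in 34.6% of all windows, was in 9 of the 13, with at least 1 window of 7 genes, all but NTHL1. These matches describe letters in a window and not bound sites.

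In siControl cells the glycosylase genes spanned a wide range of levels, on the FPKM scale, which is per length. UNG was the highest at 28.8 ± 1.27 FPKM (SD, n = 3), above 88.1% of the 12707 tested genes. MBD4 followed at 11.6 ± 0.227. NEIL2 (8.003 ± 0.330), TDG (7.46 ± 0.339) and NTHL1 (7.11 ± 0.768) formed a middle group in which the sample ranges of neighbours overlapped. NEIL3 (4.80 ± 0.184), SMUG1 (4.62 ± 0.271) and MUTYH (4.002 ± 0.306) overlapped their neighbours likewise. OGG1 stood at 2.14 ± 0.0535 FPKM, above 16.2% of tested genes, and NEIL1 was lowest at 0.819 ± 0.0651. NEIL1 had a mean below 1 FPKM over the 9 samples, the minimum for testing, so 9 of the 10 genes were tested.

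The summed FPKM of the 10 genes was 81.2, 77.1 and 79.8 in the siControl samples, 51.8, 52.3 and 55.4 in the siFOXN3-1 samples and 66.9, 70.2 and 66.5 in the siFOXN3-2 samples. The 3 groups did not overlap in this sum. UNG made up 36.3 ± 0.968% of it in siControl, 31.9 ± 2.56% in siFOXN3-1 and 34.1 ± 1.20% in siFOXN3-2 (SD, n = 3). The share of TDG was 9.39 ± 0.401%, 12.2 ± 1.41% and 15.0 ± 0.637% in the same order, and with siFOXN3-2 TDG ranked next after UNG and MBD4, above NEIL2 and NTHL1 with no overlap of sample ranges.

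**Figure D1:**
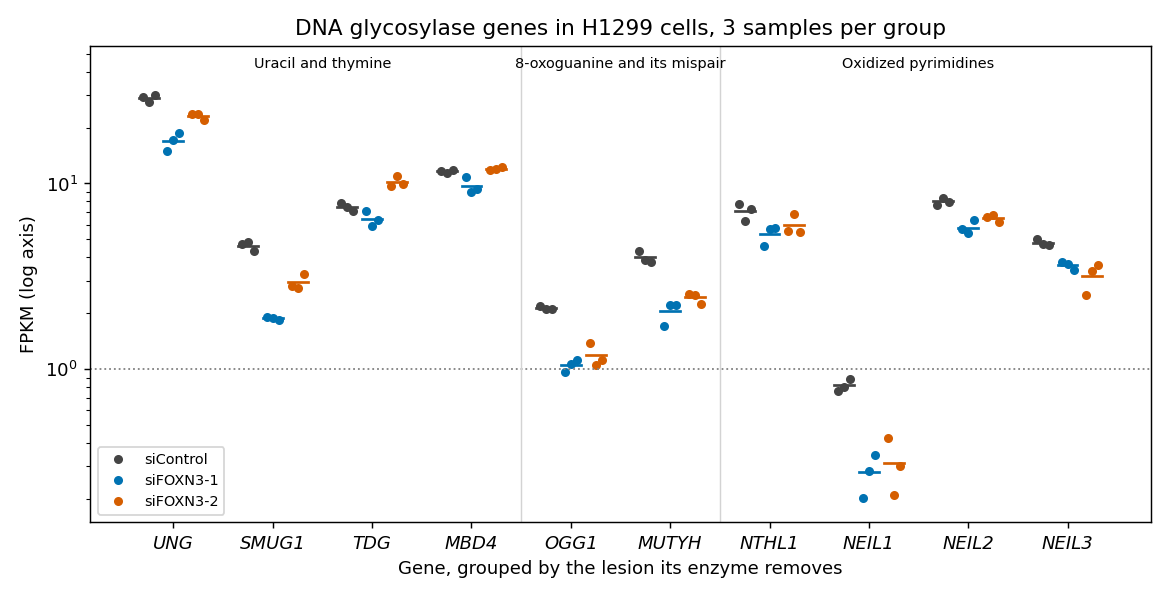
FPKM on a log axis of the 10 glycosylase genes in each sample (points) with the group mean (line), grouped by the lesion the enzyme removes, and with the minimum for testing of 1 FPKM as a dotted line. UNG is highest in every group and NEIL1 lies under the line in all 9 samples. UNG, SMUG1, OGG1, MUTYH, NEIL1, NEIL2 and NEIL3 are lower in all 6 FOXN3 siRNA samples than in any siControl sample.

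Against siControl, 8 of the 9 tested glycosylase genes fell with siFOXN3-1 and none rose, whereas with siFOXN3-2 6 fell and 1, TDG, rose. Changes in RNA were common in these cells, and the counts are to be read against that background. With siFOXN3-1 64.7% of all tested genes passed an adjusted p of 0.05 in limma, and 45.3% of them all were called lower, 19.3% higher. With siFOXN3-2 63.3% passed, 39.2% lower and 24.1% higher. At an unadjusted p under 0.05, 0 of the 9 rose and 9 fell with siFOXN3-1, and voom with limma on recovered reads also called 0 higher and 9 lower. The median log2 fold change of the 9 genes was -0.41 with siFOXN3-1 and -0.30 with siFOXN3-2, beside -0.17 and -0.10 for all tested genes. In the average of both siRNAs, 7 of the 9 were called lower and none higher. Of all tested genes 67.6% were called there, 44.9% lower and 22.6% higher. No tested member was higher in that average at an unadjusted p under 0.05 or with voom. However, scaling to an unchanged median gene (median ratio scaling) and quantile normalization each gave 6 lower and 1 higher in that average. The shares of all tested genes called under these settings are not given here. The call of NTHL1 was lost under both (limma adjusted p = 0.190 and 0.243).

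Sample ranges gave a like picture. With siFOXN3-1 8 of the 9 tested genes had all samples below siControl, where 71.1% of all tested genes did not overlap, 49.1% of them all on the lower side. With siFOXN3-2 6 were below and 2, TDG and MBD4, above, beside 68.2% of all tested genes apart from siControl, 42% lower and 26.2% higher. For 6 genes all 6 FOXN3 siRNA samples lay below siControl together, beside 53.4% of all tested genes apart, 36.4% lower. Between the siRNAs 5 genes, the uracil and thymine enzymes and MUTYH, were higher in every siFOXN3-2 sample, beside 46% of all tested genes apart and 31.8% higher.

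The size of the shift over all genes depended on scaling. When samples were scaled so that the median gene did not change, the share of higher genes among all called moved from 29.9% to 50.3% with siFOXN3-1 and from 38.1% to 49.8% with siFOXN3-2. Under that median ratio scaling 5 glycosylase genes were called lower with siFOXN3-1 and none higher. With siFOXN3-2 4 were lower and TDG was higher. The median log2 fold change of the 9 tested members was then -0.23 and -0.19, beside 0.0003 and -0.004 for all tested genes. The share of all tested genes called lower under that scaling is not given here, so these counts cannot be set beside it. No glycosylase gene that was called changed its direction under any of the 24 alternatives.

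**Figure D2:**
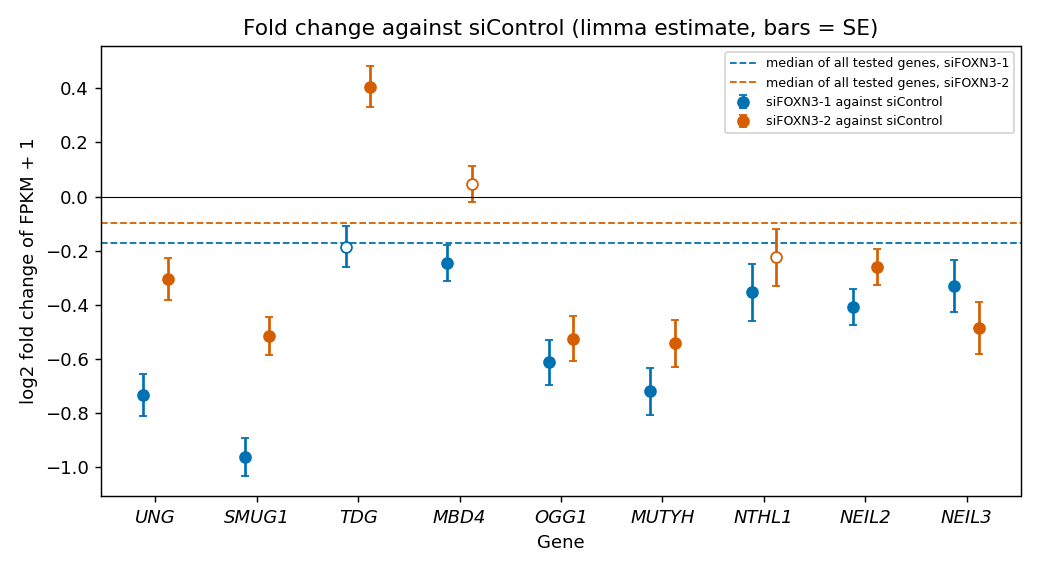
Limma log2 fold change of FPKM + 1 for the 9 tested glycosylase genes against siControl (points, bars are SE, filled where the adjusted p is under 0.05), with the median of all 12707 tested genes for each siRNA as dashed lines. SMUG1 with siFOXN3-1 lies lowest at -0.96, and TDG with siFOXN3-2 is the single filled point above 0, at 0.41.

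Among the uracil and thymine glycosylases, UNG and SMUG1 fell with both siRNAs, more with siFOXN3-1. UNG, which removes uracil left by dUTP incorporation or by cytosine deamination, lies on chromosome 12 (109097574-109110992, plus strand, GRCh38, GENCODE 29). It measured 29.2, 27.4 and 29.8 FPKM in siControl, 15.0, 17.2 and 18.8 in siFOXN3-1 and 23.7, 23.6 and 22.0 in siFOXN3-2. The 3 groups did not overlap, and siFOXN3-1 was lowest. With siFOXN3-1 59.0% of the siControl mean remained, a log2 fold change of -0.73 with SE 0.0764 (limma adjusted p = 1.78e-05). With siFOXN3-2 80.3% remained, a log2 fold change of -0.30 (limma adjusted p = 0.00553). The call with siFOXN3-2 was lost under median ratio scaling (-0.19, limma adjusted p = 0.0556) and without siFOXN3-2 replicates 2 and 3 (-0.27, limma adjusted p = 0.0790). The gene row sums both forms of UNG, and their levels were not separated.

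SMUG1, which removes uracil and hydroxymethyluracil and favours single-stranded DNA in vitro, lies on chromosome 12 (54121277-54189008, minus strand). It measured 4.71, 4.83 and 4.31 FPKM in siControl, 1.91, 1.89 and 1.85 in siFOXN3-1 and 2.81, 2.74 and 3.24 in siFOXN3-2. Again all 3 groups were apart, and the siFOXN3-1 samples were close together, with an SD of 0.0323 FPKM. SMUG1 had the largest fall of the tested members with siFOXN3-1, at -0.96 with SE 0.0701 (limma adjusted p = 1.75e-06), which left 40.8% of the siControl mean. With siFOXN3-2 it fell by 0.52 on the log2 scale (limma adjusted p = 0.000116) and 63.4% remained. On recovered reads, where no pseudocount of 1 FPKM damps low genes, the log2 fold changes were -1.29 and -0.66.

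TDG, on chromosome 12 (103965804-103988874, plus strand), went the other way with siFOXN3-2. It measured 7.80, 7.44 and 7.13 FPKM in siControl, 7.14, 5.90 and 6.32 in siFOXN3-1 and 9.65, 11.02 and 9.97 in siFOXN3-2. Every siFOXN3-2 sample exceeded every other sample, whereas siFOXN3-1 overlapped siControl through its replicate 1. TDG rose to 137% of the siControl mean with siFOXN3-2, a log2 fold change of 0.41 with SE 0.0747 (limma adjusted p = 0.000855). This call held under all 24 alternatives, with values of 0.33 to 0.51. With siFOXN3-1 the value was -0.18 and the adjusted p in limma 0.0506. Without siFOXN3-1 replicate 1 it was -0.25 (limma adjusted p = 0.0137), on recovered reads -0.21 (limma adjusted p = 0.0451), and under median ratio scaling -0.00 (limma adjusted p = 0.980).

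MBD4, on chromosome 3 (129430944-129440179, minus strand), binds methylated CpG sites and removes thymine or uracil opposite guanine there. It measured 11.7, 11.4 and 11.8 FPKM in siControl, 10.8, 8.94 and 9.31 in siFOXN3-1 and 11.8, 11.999 and 12.3 in siFOXN3-2. The siFOXN3-1 samples lay below siControl, by least in replicate 1, and the siFOXN3-2 samples lay just above it. MBD4 fell with siFOXN3-1 (-0.24, SE 0.0662, limma adjusted p = 0.00805) and gave 0.05 with siFOXN3-2 (limma adjusted p = 0.572). Under median ratio scaling the siFOXN3-1 value was -0.05 (limma adjusted p = 0.484).

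The enzymes that act on 8-oxoguanine, the main oxidized form of guanine, fell with both siRNAs. OGG1, which excises 8-oxoguanine opposite cytosine, lies on chromosome 3 (9749944-9788219, plus strand). It measured 2.20, 2.12 and 2.0999 FPKM in siControl, 0.971, 1.07 and 1.12 in siFOXN3-1 and 1.39, 1.05 and 1.12 in siFOXN3-2. All 6 siRNA samples were below siControl, and the siRNA groups overlapped. OGG1 fell by 0.61 with siFOXN3-1 and by 0.53 with siFOXN3-2 on the log2(FPKM + 1) scale (SE 0.0829, limma adjusted p = 0.000104 and 0.000319), with 49.3% and 55.4% of the mean left. The log2 fold changes on recovered reads were larger, at -1.02 and -0.86.

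MUTYH, which removes adenine paired with 8-oxoguanine, lies on chromosome 1 (45329163-45340470, minus strand). It measured 4.35, 3.86 and 3.79 FPKM in siControl, 1.70, 2.22 and 2.22 in siFOXN3-1 and 2.53, 2.52 and 2.25 in siFOXN3-2. Every siRNA sample was below every siControl sample. MUTYH fell by 0.72 with siFOXN3-1 and by 0.54 with siFOXN3-2 on the log2 scale (SE 0.0871, limma adjusted p = 4.9e-05 and 0.000356). The calls of OGG1 and of MUTYH held in both comparisons under all 24 alternatives.

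The library kit does not mark strand, so reads from genes that overlap on opposite strands cannot be told apart. MUTYH shares 552 bases, 14.1% of its exon length, with TOE1, a deadenylase gene on the other strand. TOE1 itself fell from 6.11 ± 0.586 FPKM in siControl to 2.01 ± 0.242 and 2.27 ± 0.180 (SD, n = 3). OGG1 shares 29.04% of its exon length with opposite-strand genes, most of it with CAMK1, which stood at 0.171 FPKM or less on average in each group, and 356 bases with TADA3, which fell from 25.3 ± 0.997 to 17.0 ± 0.970 and 18.6 ± 1.11. Among the other members, NEIL1 shares 30.5% of its exon length with opposite-strand genes, NTHL1 16.5%, MBD4 4.29% and SMUG1 2.97%, while UNG, TDG, NEIL2 and NEIL3 share none. Copies of UNG, SMUG1 and TDG that the annotation names as pseudogenes (UNGP1, UNGP3, SMUG1P1 and TDGP1) could also take up or lend reads, and how the authors' counting treated them is not given in the sources used here.

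Of the enzymes for oxidized pyrimidines, NEIL2 and NEIL3 fell with both siRNAs and NTHL1 with siFOXN3-1, and NEIL1 was below the minimum for testing. NTHL1, which excises thymine glycol and related lesions and also cuts the strand, lies on chromosome 16 (2039815-2047866, minus strand). It measured 7.75, 6.26 and 7.32 FPKM in siControl, 4.61, 5.71 and 5.73 in siFOXN3-1 and 5.54, 6.85 and 5.46 in siFOXN3-2. Its siFOXN3-1 samples were below siControl, whereas siFOXN3-2 replicate 2 was above siControl replicate 2. NTHL1 fell with siFOXN3-1 (-0.35, SE 0.105, limma adjusted p = 0.0133), and with siFOXN3-2 the value was -0.22 (limma adjusted p = 0.0874). The first call was lost without siControl replicate 1 (limma adjusted p = 0.0534) or siFOXN3-1 replicate 1 (limma adjusted p = 0.0528), and under median ratio scaling (-0.17, limma adjusted p = 0.191). The second was gained without siControl replicate 2 (limma adjusted p = 0.0416) or siFOXN3-2 replicate 2 (limma adjusted p = 0.0250). TSC2, the opposite-strand neighbour that shares 402 bases with NTHL1, fell from 4.21 ± 0.363 FPKM to 2.71 ± 0.198 and 2.96 ± 0.473 (SD, n = 3).

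NEIL1, on chromosome 15 (75346955-75357114, plus strand), excises oxidized pyrimidines and ring-opened purines. It measured 0.764, 0.803 and 0.891 FPKM in siControl, 0.204, 0.285 and 0.346 in siFOXN3-1 and 0.424, 0.211 and 0.303 in siFOXN3-2. These values stand for 99, 107 and 121 recovered reads in siControl, 27, 36 and 42 in siFOXN3-1 and 50, 27 and 38 in siFOXN3-2. All 6 siRNA samples were below siControl, with 33.9% and 38.1% of the mean left, the smallest remaining shares among the 10 genes. NEIL1 was not tested in the fit described above. With a minimum of 0.1 FPKM it gave -0.51 with siFOXN3-1 (limma adjusted p = 0.000879) and -0.47 with siFOXN3-2 (limma adjusted p = 0.00144). MAN2C1, which shares 1831 bases with NEIL1 on the other strand, is the more abundant of the pair, at 3.78 FPKM in siControl and 2.57 and 2.66 with the siRNAs. How many of the NEIL1 reads come from MAN2C1 was not tested.

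NEIL2, on chromosome 8 (11769639-11787346, plus strand), is known to prefer lesions in DNA bubbles such as those of transcription. It measured 7.68, 8.34 and 7.995 FPKM in siControl, 5.66, 5.39 and 6.33 in siFOXN3-1 and 6.56, 6.79 and 6.18 in siFOXN3-2. All 6 siRNA samples were below siControl, and the siRNA groups overlapped each other. NEIL2 fell with siFOXN3-1 (-0.41, SE 0.0661, limma adjusted p = 0.000351) and with siFOXN3-2 (-0.26, limma adjusted p = 0.00581). The latter call was lost under median ratio scaling (-0.16, limma adjusted p = 0.0661), under quantile normalization (-0.17, limma adjusted p = 0.0670) and without siFOXN3-2 replicates 2 and 3 (-0.25, limma adjusted p = 0.0545).

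NEIL3, on chromosome 4 (177309836-177362943, plus strand), is known as the glycosylase of dividing cells, active on single-stranded DNA and on crosslinks between strands. It measured 5.01, 4.73 and 4.66 FPKM in siControl, 3.77, 3.67 and 3.42 in siFOXN3-1 and 2.50, 3.39 and 3.63 in siFOXN3-2. The siRNA samples were all below siControl, with siFOXN3-2 replicate 1 lowest. NEIL3 fell by 0.33 with siFOXN3-1 and by 0.49 with siFOXN3-2 on the log2 scale (SE 0.0968, limma adjusted p = 0.0123 and 0.00144). The call with siFOXN3-1 was lost under median ratio scaling (-0.16, limma adjusted p = 0.177) and quantile normalization (-0.10, limma adjusted p = 0.407). Without siFOXN3-2 replicates 2 and 3 the siFOXN3-2 value was -0.73 (limma adjusted p = 0.000331).

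The siRNAs were then compared directly. All 4 uracil and thymine enzymes were called higher with siFOXN3-2 than with siFOXN3-1. Of the 5 tested enzymes for oxidized bases none passed the test of that difference. Each gene was tested singly, and whether these classes of enzymes differ from each other was not tested. Of all tested genes 36.1% differed between the siRNAs, 25.4% higher with siFOXN3-2 and 10.7% lower. The difference, siFOXN3-2 minus siFOXN3-1 on the log2 scale, was 0.59 for TDG (SE 0.0747, limma adjusted p = 0.000351). It was 0.44 for SMUG1 (SE 0.0701, limma adjusted p = 0.00117), 0.43 for UNG (SE 0.0764, limma adjusted p = 0.00222) and 0.29 for MBD4 (SE 0.0662, limma adjusted p = 0.00757). In each of these 4 genes the siFOXN3-2 samples were above all siFOXN3-1 samples. The same held for MUTYH, whose difference (SE 0.0871) reached 0.26 under the alternatives without being called. The values for the other tested genes were 0.18 for MUTYH, 0.15 for NEIL2, 0.13 for NTHL1, 0.09 for OGG1 and -0.16 for NEIL3, with limma adjusted p of 0.110 to 0.446. None of these 5 had an unadjusted p under 0.05 in limma, although NEIL2 came close to that threshold. Voom with limma on recovered reads also called none of these 5. NEIL2 kept its side of the threshold in 23 of the 24 alternatives and passed with 1 sample left out (limma adjusted p = 0.0446). No tested member was called lower, and none had an unadjusted p under 0.05 in that direction or was lower with voom.

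The comparison rests in part on the 2 samples with discordant treatment labels. With siFOXN3-2 replicate 1 alone, which is then assumed to vary like the samples of the other groups, TDG (0.52), SMUG1 (0.40) and UNG (0.46) remained called higher in limma. MBD4 gave 0.26 (limma adjusted p = 0.0933), and NEIL3 was called lower with siFOXN3-2, at -0.40 (limma adjusted p = 0.0162). MBD4 also missed the threshold under quantile normalization, at 0.18 (limma adjusted p = 0.0517). Under median ratio scaling, which moved the share of higher genes among all genes called between the siRNAs from 70.3% to 49.5%, the same 4 glycosylase genes were called higher. The siRNA groups also differed in low-level marker RNA. The summed FPKM of 5 immune markers was 0.632 to 1.40 in siControl, 0.226 to 0.461 in siFOXN3-1 and 1.73 to 2.23 in siFOXN3-2. That of 5 fibroblast markers was 0.900 to 1.08, 0.541 to 0.707 and 2.26 to 3.61, and none of these 10 markers reached a mean of 1 FPKM or was at 0 in all samples. Their part in the differences between the siRNAs was not tested.

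**Figure D3:**
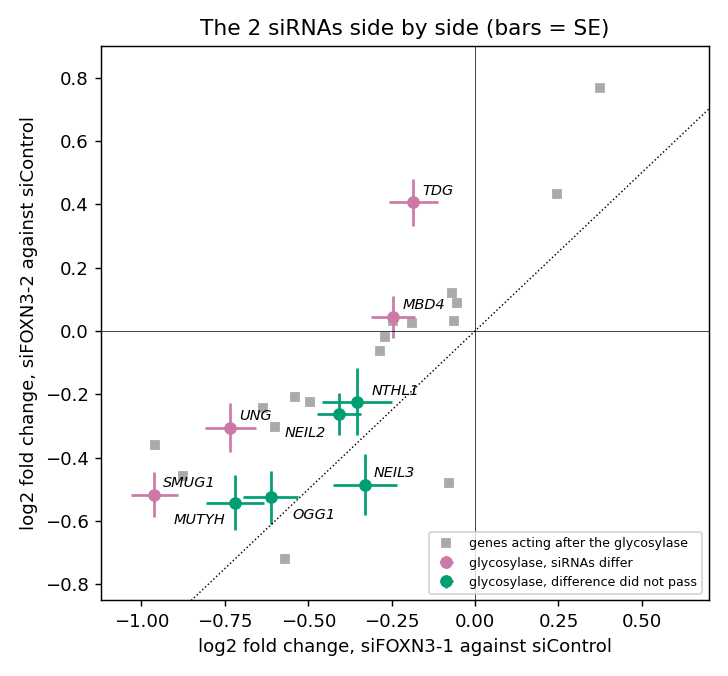
Log2 fold change against siControl with siFOXN3-1 (x axis) and siFOXN3-2 (y axis) for the 9 tested glycosylase genes (circles, bars are SE) and for 17 genes that act after the glycosylase (squares), with a dotted line of equal change. Both axes use the same siControl samples. TDG, MBD4, UNG and SMUG1, in pink, are the members that pass the test between the siRNAs, with TDG above 0 on the y axis only.

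**Figure D4:**
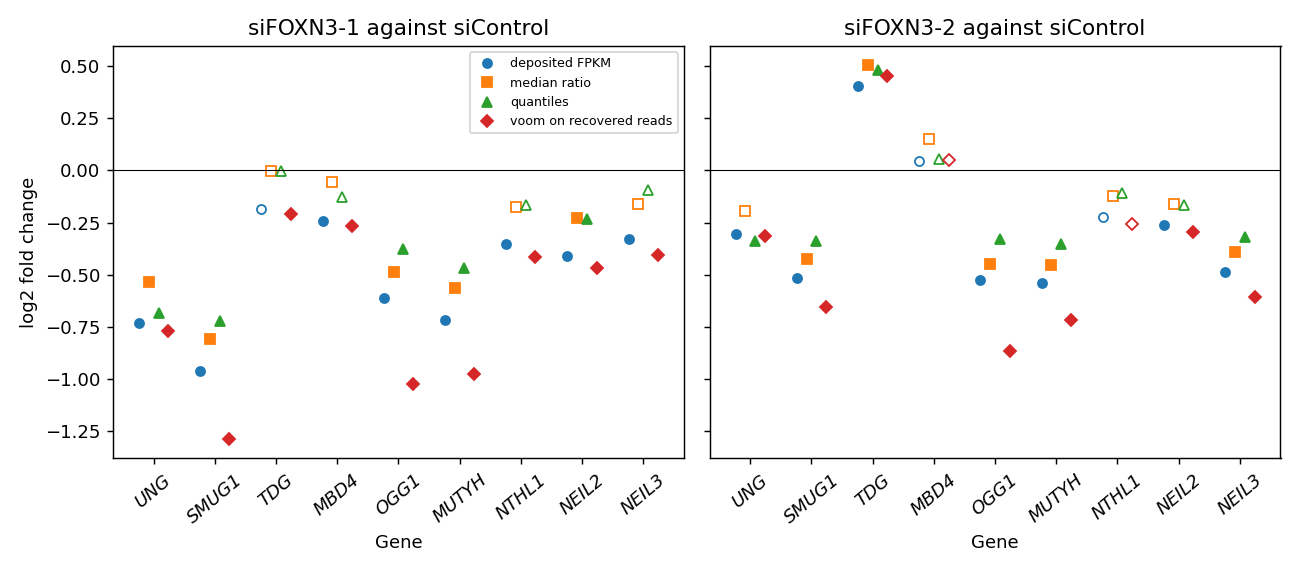
Log2 fold change of each tested glycosylase gene with the deposited FPKM, after median ratio scaling, after quantile normalization and with voom on recovered reads, filled where the adjusted p is under 0.05. MBD4, NTHL1 and NEIL3 lose their call with siFOXN3-1 under both rescalings, and TDG stays filled above 0 with siFOXN3-2 under each.

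The genes that act after the glycosylase were set beside these values. Of 18 listed genes 17 were tested. With siFOXN3-1 11 were lower and 2 higher, and with siFOXN3-2 8 were lower and 2 higher, with medians of -0.27 and -0.06 on the log2 scale. Under median ratio scaling the counts were 7 lower and 2 higher, then 6 lower and 3 higher, with medians of -0.079 and 0.047. Quantile normalization gave 8 lower and 3 higher with each siRNA. Over all tested genes with the deposited FPKM, 45.3% were lower and 19.3% higher with siFOXN3-1, and 39.2% and 24.1% with siFOXN3-2. The medians of all tested genes were -0.17 and -0.10. APEX1, which encodes APE1, the endonuclease that cuts at the empty site, stood at 60.2 ± 4.15 FPKM in siControl (SD, n = 3). It fell with siFOXN3-1 (-0.28, limma adjusted p = 0.00365) and gave -0.06 with siFOXN3-2 (limma adjusted p = 0.420). The call with siFOXN3-1 was lost under median ratio scaling (-0.079, limma adjusted p = 0.321), and the siFOXN3-2 value passed the test under quantile normalization (-0.16, limma adjusted p = 0.0256). Its relative APEX2 fell with both, from 15.3 ± 0.718 FPKM to 9.46 ± 0.487 and 12.8 ± 0.865. With siFOXN3-2 that call was lost under median ratio scaling (-0.14, limma adjusted p = 0.0859).

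Of the gap-filling enzymes, POLB, the main polymerase of short-patch repair, rose from 3.56 ± 0.306 FPKM to 4.3999 ± 0.340 with siFOXN3-1 and 5.15 ± 0.448 with siFOXN3-2 (SD, n = 3). Its call with siFOXN3-1 was lost after scaling to an equal sum of FPKM without mitochondrial genes (0.19, limma adjusted p = 0.0503). POLL, its relative, fell with both siRNAs (-0.60 and -0.30). POLH, a polymerase better known for bypass of ultraviolet damage, gave -0.08 with siFOXN3-1 (limma adjusted p = 0.401) and fell by 0.48 on the log2 scale with siFOXN3-2 (limma adjusted p = 0.000432). The long-patch genes fell with both siRNAs. PCNA, the sliding clamp, went from 89.7 ± 7.93 FPKM to 45.6 ± 3.47 and 69.5 ± 4.35, and the flap endonuclease FEN1 from 28.7 ± 0.832 to 15.2 ± 0.223 and 20.6 ± 0.650. LIG1, the ligase of that branch, fell by 0.57 and 0.72 on the log2 scale, whereas LIG3, the ligase of short-patch repair, gave -0.05 and 0.09 (limma adjusted p = 0.533 and 0.322) and was called higher with both under quantile normalization (0.21 and 0.28, limma adjusted p = 0.0215 and 0.00463).

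Among the strand-break sensors and their partners, PARP1 fell with both siRNAs (-0.49 and -0.22). PARP2 rose with both, from 7.62 ± 0.224 FPKM to 10.2 ± 0.555 and 13.7 ± 0.699 (SD, n = 3). XRCC1, the scaffold for LIG3, fell with siFOXN3-1 (-0.19), although its sign changed under median ratio scaling (0.01, limma adjusted p = 0.877), and it gave 0.02 with siFOXN3-2. PARG, which removes poly(ADP-ribose), and APTX, which clears failed ligations, fell with siFOXN3-1 (-0.27 and -0.24) and gave -0.02 and 0.03 with siFOXN3-2. Both calls were lost under median ratio scaling (-0.083 and -0.059, limma adjusted p = 0.273 and 0.355) and under quantile normalization (-0.13 and -0.080, limma adjusted p = 0.0784 and 0.198). TDP1, which clears blocked strand ends (-0.07 and 0.12), and HMGB1, a DNA-bending cofactor (-0.06 and 0.03), did not pass the test with either siRNA, although TDP1 was called higher with siFOXN3-2 under median ratio scaling (0.23, limma adjusted p = 0.00489). APLF, a histone-binding repair factor below the minimum for testing, stood at 0.598 ± 0.0757 FPKM in siControl and at 0.280 ± 0.0282 and 0.304 ± 0.0296 with the siRNAs. Between the siRNAs 12 of these 17 genes were higher with siFOXN3-2 and 1, POLH, was lower, beside 25.4% and 10.7% of all tested genes. Median ratio scaling gave 8 higher and 2 lower, and quantile normalization 9 higher and 2 lower. LIG1 was then also called lower (-0.23 and -0.22, limma adjusted p = 0.0105 and 0.0141).

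MPG, the glycosylase for alkylated purines, is not among the 10 and stood at 23.9 ± 1.77, 23.0 ± 2.56 and 23.4 ± 2.61 FPKM in siControl, siFOXN3-1 and siFOXN3-2 (SD, n = 3). Its log2 fold changes were -0.06 and -0.03 (SE 0.0984, limma adjusted p = 0.643 and 0.825), and they were above 0 under median ratio scaling, at 0.14 and 0.08 (limma adjusted p = 0.239 and 0.503). Of the 5 genes listed for alkylation damage 2 were lower with siFOXN3-1 and 1 with siFOXN3-2, beside 45.3% and 39.2% of all tested genes. Median ratio scaling gave 1 lower and 1 higher with each. ALKBH3, a demethylase of alkylated bases, fell with both (-0.52 and -0.40). MGMT fell with siFOXN3-1 (-0.22, limma adjusted p = 0.0276), but its value was -0.058 under median ratio scaling (limma adjusted p = 0.563) and 0.01 under quantile normalization (limma adjusted p = 0.894).

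Genes that set how much substrate the uracil and 8-oxoguanine enzymes meet were also listed. Of 8 genes that clean the nucleotide pool 6 were lower with siFOXN3-1, and 7 were lower and 1 higher with siFOXN3-2. Of all tested genes 45.3% and 39.2% were called lower. Under median ratio scaling 4 of the 8 were lower with siFOXN3-1, and 5 were lower and 1 higher with siFOXN3-2. Quantile normalization gave 4 lower, then 7 lower and 1 higher. DUT, which destroys dUTP before it enters DNA, fell from 31.3 ± 1.88 FPKM to 21.3 ± 1.20 and 21.7 ± 2.72 (SD, n = 3). SAMHD1, a dNTP hydrolase, fell by 0.71 and 0.83 on the log2 scale, and the Nudix hydrolase genes NUDT18 and NUDT16 fell with both siRNAs (-0.86 and -0.60, then -0.58 and -0.44). Of 17 genes in the table listed for cytosine deamination and demethylation 11 were tested. Of these, 6 were lower and 2 higher with siFOXN3-1, and 8 lower and 2 higher with siFOXN3-2, beside 19.3% and 24.1% of all tested genes called higher. The higher pair was GADD45A, from 32.5 ± 2.34 FPKM to 151 ± 11.2 and 99.0 ± 12.8, and GADD45B, from 12.9 ± 0.507 to 34.9 ± 4.43 and 27.5 ± 2.36. Both encode stress-induced proteins, and GADD45A is reported to bind TDG. UHRF1 and the methyltransferase gene DNMT3A were lower with both siRNAs (-0.79 and -0.50, then -0.55 and -0.95).

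Of 8 mismatch repair genes whose products work with MUTYH or MBD4, 6 were lower with siFOXN3-1, and 4 were lower and 2 higher with siFOXN3-2. With siFOXN3-1 these were 4 lower and 2 higher under median ratio scaling and 5 lower and 2 higher under quantile normalization. Over all tested genes with the deposited FPKM, 45.3% were lower and 19.3% higher with siFOXN3-1, and 39.2% and 24.1% with siFOXN3-2. PMS2, a mismatch repair endonuclease, fell from 7.19 ± 0.228 FPKM to 3.14 ± 0.338 and 4.68 ± 0.454 (SD, n = 3). RPA1 and RPA2, of the single-strand binding complex, fell with both (-0.45 and -0.28, then -0.42 and -0.31). Of 14 genes for proteins known to bind or modify glycosylases, 9 were lower and 3 higher with siFOXN3-1, and 7 lower and 4 higher with siFOXN3-2, with UHRF1 and PCNA among the lower. Median ratio scaling gave 7 lower and 4 higher with each siRNA. TRIM26, a ubiquitin ligase for NEIL1 and NTHL1, fell from 9.18 ± 0.448 FPKM to 3.48 ± 0.168 and 3.95 ± 0.289. FADD, an adaptor of cell death receptors that binds MBD4, fell by 1.15 and 1.06 on the log2 scale.

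UNG and NEIL3 are known to be expressed most in dividing cells, so cell cycle genes were read in the same samples. Of 18 S phase genes 16 were lower and 2 higher with siFOXN3-1, and 15 were lower and 2 higher with siFOXN3-2, with medians of -0.79 and -0.69 on the log2 scale. Under median ratio scaling these were 11 lower and 2 higher, then 13 lower and 3 higher. Over all tested genes with the deposited FPKM, 45.3% were lower and 19.3% higher with siFOXN3-1, and 39.2% and 24.1% with siFOXN3-2. MCM3 fell from 47.8 ± 1.07 FPKM to 23.7 ± 1.63 and 15.8 ± 0.109, and MCM6, MCM4 and POLA1 fell by 1.00, 0.95 and 0.90 on the log2 scale with siFOXN3-1 and by 0.79, 0.70 and 0.85 with siFOXN3-2. Of 12 genes of G2 and M phase 5 were higher and 4 lower with siFOXN3-1, and 8 higher and 4 lower with siFOXN3-2. These were 6 higher and 2 lower, then 8 higher and 1 lower, under median ratio scaling, and 4 and 4, then 5 and 4, under quantile normalization. CDK1, AURKA and CDC20 rose with both siRNAs (0.78 and 1.01, 0.47 and 0.50, 0.58 and 0.54), and KIF11 fell (-0.62 and -0.70). These samples are bulk RNA, in which fewer cells in a phase of the cycle and less RNA per cell cannot be told apart, and the part of the cell cycle in the glycosylase values was not tested.

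The genes nearest in profile were sought by the root mean square difference of log2(FPKM + 1), centred on siControl, over all 9 samples. For SMUG1, the called member with the largest fall in the average of both siRNAs, they were DNAJC5 (0.0545), STXBP5 (0.0567) and IFIT5 (0.0668). For TDG, added after its values were seen, they were MAT2B (0.0503), ZNF714 (0.0543) and TAF11 (0.0550). MAT2B went from a mean of 16.8 FPKM in siControl to 14.2 and 22.0 with siFOXN3-1 and siFOXN3-2.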

How the data were processed

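RNA of 9 samples in 3 groups was analysed from 1 table of FPKM per Ensembl gene, deposited by the authors. The submitters' processing notes name StringTie 1.3.3b, HISAT2 2.1.0, fastp 0.14.0 and the build GRCh38. Which annotation release, counting options or filters were used is not given in the sources used here. Per the labels' protocols the library kit was NEBNext Ultra, which does not mark strand. Symbols were matched for 34435 of 34789 genes.

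Values were analysed as log2(FPKM + 1), a scale that understates the fold change of low genes. The test took in 12707 genes whose mean over the 9 samples was 1 FPKM or more and left out 22082. A single model of the 3 groups was fitted in R 4.3.3 by limma 3.58.1 (eBayes with trend, 6 residual and 4.02 prior degrees of freedom), with two-sided p-values that were adjusted over all tested genes by Benjamini-Hochberg and read at a threshold of 0.05. The 4 contrasts were each FOXN3 siRNA and their average against siControl, and siFOXN3-2 against siFOXN3-1. The script was tested on simulated data.

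Low FPKM values were whole multiples of the worth of 1 read, given exon lengths of GENCODE 29. In each sample 98.2% to 98.4% of values worth few reads came out whole within 0.05, and whole reads were recovered for 12467 (98.1%) of the tested genes. The count test on these reads (voom with limma) called 8254 genes with siFOXN3-1 and 8088 with siFOXN3-2. Pairs of replicates gave a mean chi-square of 4.18 to 14.2 per gene on these reads, more than read sampling alone gives.

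The members and lists were chosen with earlier results of these data known. Named were all members and all genes of repair after the glycosylase step. Of each other list, up to 4 called genes with the smallest adjusted p in the average contrast were named. The 3 genes nearest in profile to the called member with the largest fall were also named. With the deposited FPKM no member was called higher in the average contrast. TDG's neighbours, MPG and the overlapping genes were named after their values were seen. Some genes that this rule names are not reported here. Markers SFTPC and SCGB1A1 and the deaminase gene APOBEC1 were not analysed here. Of endothelial markers the summed FPKM was 0.232 to 0.537, and of 3 alveolar and airway markers 1.98 to 3.37, with AGER the one above 1. In all, 24 alternatives were run, of which voom on recovered reads, protein-coding genes only, and an equal sum of FPKM without mitochondrial genes were chosen after seeing the data.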

Additional observations from a re-analysis of the deposited data

Results flagged for a closer look

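The siRNAs against FOXN3 share a target and a control group. Between them 4 of the 9 tested glycosylase genes differed by the test of the difference in limma, beside 36.1% of all tested genes. On the log2(FPKM + 1) scale, siFOXN3-2 exceeded siFOXN3-1 by 0.59 for TDG, 0.44 for SMUG1, 0.43 for UNG and 0.29 for MBD4, in all 3 samples of each group. Against siControl, TDG gave 0.41 with siFOXN3-2 and -0.18 with siFOXN3-1, of which the first passed the test. MBD4 gave 0.05 and -0.24, of which the second passed. FOXN3 RNA was at 19.0% of siControl with siFOXN3-2 and 24.3% with siFOXN3-1. Over all tested genes 25.4% were higher with siFOXN3-2 than with siFOXN3-1 and 10.7% lower, so such differences were common.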

How the results depend on the processing

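Of 654 values of single glycosylase genes under the alternatives, for each siRNA against siControl and between the siRNAs, 620 kept their direction and their side of the threshold, 18 gained a call, 15 lost one and 1 changed sign. That value was MBD4 with siFOXN3-2, 0.05 as reported and -0.017 after scaling to an equal sum of FPKM without mitochondrial genes (limma adjusted p = 0.853). In the average of both siRNAs, outside those values, MBD4 was -0.10 with the deposited FPKM and 0.048 under median ratio scaling (limma adjusted p = 0.469), called in neither. The number of glycosylase genes called with siFOXN3-1, 8 as reported, was 5 under median ratio scaling and 5 under quantile normalization, all lower. Of all tested genes 64.7% were called as reported, and their share under those settings is not given here. Without siFOXN3-2 replicates 2 and 3, 2706 genes differed between the siRNAs in place of 4590, and this setting has fewer samples. When 1 sample was left out in turn, 7 to 9 glycosylase genes were called with siFOXN3-1, 7 to 8 with siFOXN3-2, 6 to 8 in their average and 4 to 5 between the siRNAs. Counts over all genes were then 7536 to 8453, 7249 to 8115, 7714 to 8540 and 3315 to 4307.

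Same-numbered samples of different groups did not deviate together (correlations of -0.28 to 0.05). These correlations cannot show whether such samples were handled together, so pairing remains unknown. With the replicate number as a block, 8, 7, 7 and 4 glycosylase genes and 7668, 7422, 8019 and 3465 of all genes were called. Depth limits NEIL1, with 27 to 121 reads per sample.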
